A study of Mus musculus with 8 samples.

Results

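The BCL2 family sets whether a cell opens the outer membrane of its mitochondria, and 10 of its genes were followed through the first division of the mouse embryo. They were taken by symbol from the 21553 genes with values, through their Ensembl identifiers, and all 10 were found. The pro-survival members were Bcl2, Bcl2l1, Bcl2l2, Bcl2l10 and Mcl1. The pro-death members were the pore-forming effectors Bax, Bak1 and Bok and the BH3-only proteins Bid and Bcl2l11.

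Whole embryos from B6CBA F1 crosses had been microinjected as zygotes with mRNA for Sm proteins, which form the ring around spliceosomal small nuclear RNAs, or for the fluorescent protein mCherry. The 4 libraries of the 2-cell stage, made 24 h after injection, came from embryos given Snrpb and Snrpd2 together, Snrpb, Snrpd2, or mCherry as the control. The 4 libraries of the 1-cell stage, made 5 h after injection, came from the same 4 injections. Each of the 8 conditions was 1 library of polyadenylated RNA from 40 pooled embryos of 3 experiments, so no condition had a replicate, and uninjected embryos were not analysed here.

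When a cell receives a death signal, BH3-only proteins bind the pro-survival proteins or activate the effectors directly, and the effectors then form pores that release cytochrome c. Cytochrome c switches on Apaf1 and the caspases, which take the cell apart. The fertilized egg carries transcripts made in the oocyte, and much of this maternal store is degraded while the embryo's own genome becomes active around the 2-cell stage. Each Bcl2l1, Mcl1 and Bcl2l11 gene total sums splice forms that can differ in effect on survival, and the forms were not analysed here.

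Library depth was 39492734 to 59979046 counted reads. The injected transcripts stood where the labels put them: Snrpb was at 876 to 43850 cRPKM in the 4 libraries of embryos given it and 6.09 to 26.2 cRPKM in the other 4, and Snrpd2 was at 4726 to 17926 cRPKM against 0.85 to 10.6 cRPKM. The unit cRPKM is reads per kilobase of gene, scaled to the library's total. Of 10 oocyte and zygote markers 8 fell at the 2-cell stage and 1 rose, and of 6 tested markers of the 2-cell embryo 5 rose and 1 (Arg2) fell. Over all genes tested 38.1% were called higher and 32% lower at the 2-cell stage (edgeR adjusted p under 0.05). Sperm markers summed to 3.11 to 5.31 cRPKM at the 2-cell stage and 3.25 to 4.47 cRPKM at the 1-cell stage. Of 3 tested 1 rose (Tnp1, at 0.55 to 0.89 cRPKM in 2-cell libraries and 0 in 1-cell libraries). With no 1-cell level, Tnp1 could only be called higher. Because each library held whole embryos scaled to their own total, fewer cells of a type and less RNA per cell cannot be told apart. All levels and changes are those of polyadenylated RNA, and total transcript was not measured.

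The family spanned the whole range of expression. At the 2-cell stage the mean level ran from Bcl2l10 at 1914 cRPKM through Bcl2l1 at 212, Mcl1 at 40.7, Bax at 10.6, Bid at 9.86, Bcl2l11 at 7.56, Bok at 1.93, Bcl2l2 at 0.285 and Bcl2 at 0.185 to Bak1 at 0.0025 cRPKM. At the 1-cell stage the order was Bcl2l10 at 3321 cRPKM, then Bcl2l1 at 185, Bax at 16.9, Mcl1 at 6.48, Bcl2l11 at 5.24, Bok at 1.83, Bid at 0.445, Bcl2l2 at 0.07, Bcl2 at 0.0625 and Bak1 at 0.015 cRPKM. Between neighbours in these orders the 4-library ranges overlapped for Bax and Bid and for Bcl2l2 and Bcl2 at the 2-cell stage, and for Mcl1 and Bcl2l11 and for Bcl2l2 and Bcl2 at the 1-cell stage. Mcl1 thus stood above Bax at the 2-cell stage and below it at the 1-cell stage, with no overlap at either.

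**Figure D1:**
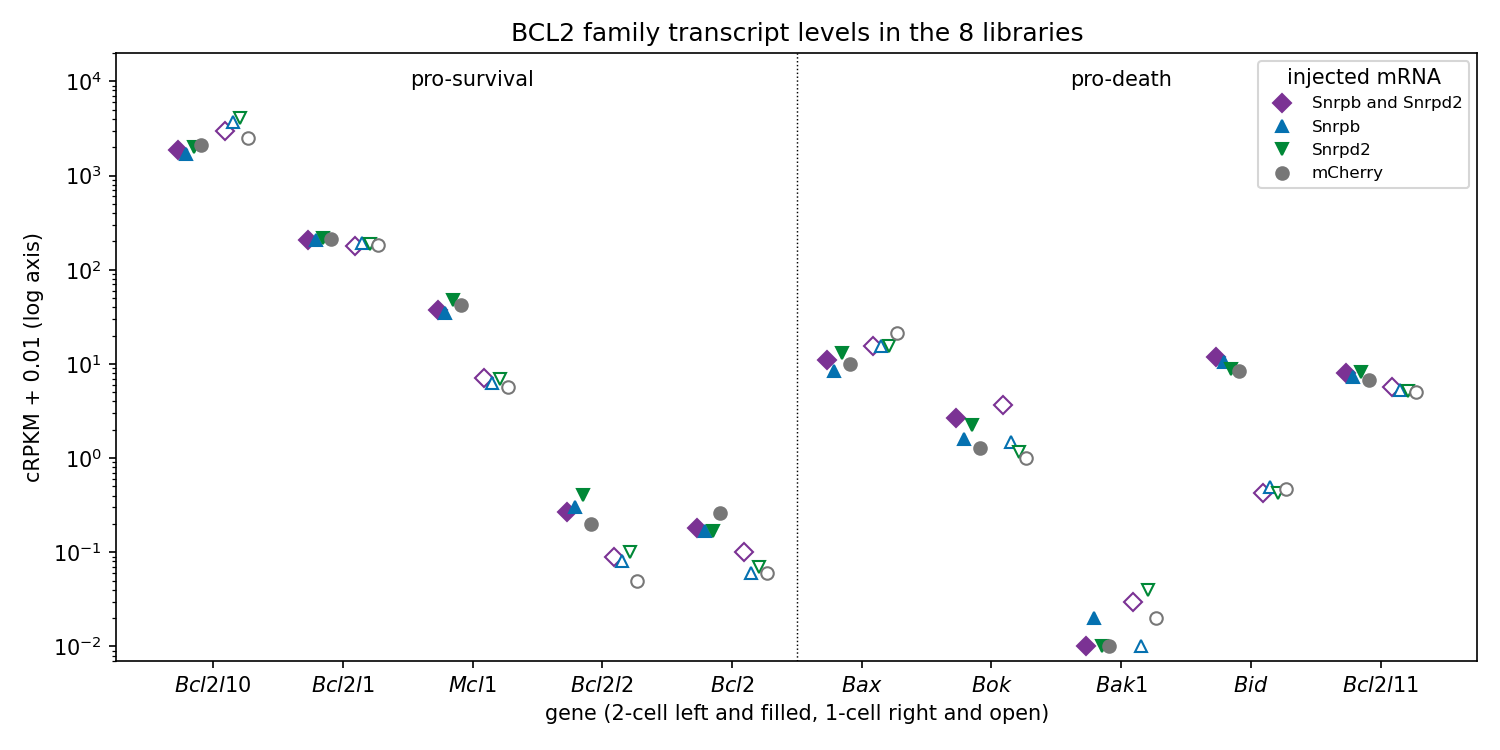
Level of each member in the 8 libraries, as cRPKM + 0.01 on a log axis, with 2-cell libraries filled on the left and 1-cell libraries open on the right of each gene and symbols for the injected mRNA. Bcl2l10 is at 1697 cRPKM or more in every library, Bak1 never exceeds 0.03 cRPKM, and Bid and Mcl1 separate most clearly by stage.

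Of the 10 members 9 had enough reads to be tested for a change between the stages, and 6 of them changed (edgeR adjusted p under 0.05). Mcl1, Bcl2, Bcl2l2 and Bid were higher at the 2-cell stage, and Bcl2l10 and Bax were lower. The 4 higher members stand beside 38.1% of all genes tested that were called higher, and the 2 lower ones beside 32% called lower, so the count of changed members is near the background. The cRPKM ranges of the 4 2-cell and the 4 1-cell libraries lay apart and higher for 6 members (42.8% of all genes tested) and apart and lower for 2 (24.8%). The P-values measure the spread of the stage change between differently injected pools, not between replicate pools.

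By class, 3 of 5 pro-survival members rose and 1 fell, with a median log2 change of 1.32 (2-cell over 1-cell). That median is the value of Bcl2 itself. Of the members that rose, Bcl2 had only 18 to 33 reads a library at the 1-cell stage and Bcl2l2 only 7 to 17. The class median thus rests on genes near the floor of detection. Of the 4 tested pro-death members 1 rose and 1 fell, with a median of 0.11. The median over all genes tested was 0.15 with TMM scaling and 0.41 when libraries were scaled to their totals alone, so small changes are read against that shift. The calls over all genes were 6198 higher and 5198 lower with TMM, and 7273 higher and 4162 lower with library totals.

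The members with the smallest adjusted p in that comparison and a promoter window are shown with the 250 bases before and 50 after their RefSeq transcription start (GRCm38.p6, written on the gene's strand from 5′ to 3′), since they moved in opposite directions. Mcl1 lies at chr3:95658471-95658770 on the plus strand, Bid at chr6:120916775-120917074 on the minus strand and Bax at chr7:45466849-45467148 on the minus strand. Capitals mark the letters of a GC box (GGGCGG), an OTX-type homeobox core (GGATTA) or a cAMP response element core (TGACG), on either strand.
Mcl1: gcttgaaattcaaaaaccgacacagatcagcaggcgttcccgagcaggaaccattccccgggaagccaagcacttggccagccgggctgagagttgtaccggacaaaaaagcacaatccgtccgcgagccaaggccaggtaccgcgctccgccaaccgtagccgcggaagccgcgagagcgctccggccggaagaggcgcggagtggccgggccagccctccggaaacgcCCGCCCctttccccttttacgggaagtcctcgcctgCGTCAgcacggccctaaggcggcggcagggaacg
Bid: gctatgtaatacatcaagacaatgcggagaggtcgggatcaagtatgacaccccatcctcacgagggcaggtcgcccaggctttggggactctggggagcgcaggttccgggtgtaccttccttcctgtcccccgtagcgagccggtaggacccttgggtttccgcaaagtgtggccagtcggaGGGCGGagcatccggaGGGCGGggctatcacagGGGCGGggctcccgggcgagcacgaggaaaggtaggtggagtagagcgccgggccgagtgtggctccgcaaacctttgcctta
Bax: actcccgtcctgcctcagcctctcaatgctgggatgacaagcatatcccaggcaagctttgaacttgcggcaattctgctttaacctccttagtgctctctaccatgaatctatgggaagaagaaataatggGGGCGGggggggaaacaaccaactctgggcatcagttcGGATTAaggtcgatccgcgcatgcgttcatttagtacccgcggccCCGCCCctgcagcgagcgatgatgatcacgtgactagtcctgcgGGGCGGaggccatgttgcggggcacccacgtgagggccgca
The Bid window holds 3 GC boxes, the Bax window 3 GC boxes and 1 GGATTA, and the Mcl1 window 1 GC box and 1 TGACG. In all, 9 members had a window (12 windows), and GC boxes were in those of 7 members, against 35.7% of 32851 windows in the table. Member counts take a match in any window of a gene and the percentages count single windows, so they are not like measures. CCAAT was found for 1 member (Bcl2l11, 37.4% of all windows), GGATTA for 1 (Bax, 7.06%), TGACG for 2 (Bcl2 and Mcl1, 20.8%) and TATAAA for 0 (13.6%). The member windows held 1 to 44 CpG dinucleotides, with a median of 7 over all windows, and these matches are a description of letters, not of bound sites.

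Bcl2l10 (ENSMUSG00000032191, chromosome 9) encodes an oocyte-enriched family member whose mouse protein has been described as pro-survival in some assays and pro-death in others. It ranked 17 to 18 among all genes by cRPKM in the 2-cell libraries and 5 to 7 in the 1-cell libraries. At the 2-cell stage it stood at 1853 (both mRNAs), 1697 (Snrpb), 2021 (Snrpd2) and 2085 cRPKM (mCherry). At the 1-cell stage it stood at 2996 (both), 3679 (Snrpb), 4082 (Snrpd2) and 2528 cRPKM (mCherry). Every 2-cell library was below every 1-cell library, and the mCherry pair lay closest together. The transcript fell by 1.04 on the log2 scale (SE 0.16, edgeR adjusted p = 0.000214), a level 2.05-fold lower at the 2-cell stage. Within single injections the 2-cell to 1-cell ratio was 0.535 (both), 0.373 (Snrpb), 0.397 (Snrpd2) and 0.717 (mCherry).

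Bcl2l1 (ENSMUSG00000007659, chromosome 2), which encodes BCL-XL, a guard of the mitochondrial membrane, was the next most abundant member at both stages. Its levels were 209 (both), 208 (Snrpb), 219 (Snrpd2) and 212 cRPKM (mCherry) at the 2-cell stage. The 1-cell values were 178 (both), 192 (Snrpb), 187 (Snrpd2) and 183 cRPKM (mCherry). In cRPKM the ranges did not overlap, yet after TMM scaling the log2 change was -0.06 (SE 0.10, edgeR adjusted p = 0.611), and with library totals it was 0.20 (edgeR adjusted p = 0.0958). Its direction between the stages therefore turns with the scaling and it is given no direction here.

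Mcl1 (ENSMUSG00000038612, chromosome 3) encodes a short-lived pro-survival protein that binds effectors and BH3-only proteins. It stood at 37.7 (both), 35.1 (Snrpb), 48.3 (Snrpd2) and 41.7 cRPKM (mCherry) in 2-cell embryos. In 1-cell embryos it stood at 7.09 (both), 6.27 (Snrpb), 6.90 (Snrpd2) and 5.64 cRPKM (mCherry). The lowest 2-cell library was well above the highest 1-cell library. The log2 change was 2.39 (SE 0.13, edgeR adjusted p = 1.48e-07), which is 5.23-fold higher, and the 4 injections gave ratios of 4.60 (both), 4.52 (Snrpb), 5.61 (Snrpd2) and 6.43 (mCherry).

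Bcl2 (ENSMUSG00000057329, chromosome 1), the founding pro-survival gene, and Bcl2l2 (ENSMUSG00000089682, chromosome 14), which encodes BCL-W, were near the floor of detection. Bcl2 had 49 (both), 46 (Snrpb), 51 (Snrpd2) and 77 reads (mCherry) at the 2-cell stage against 33 (both), 22 (Snrpb), 24 (Snrpd2) and 18 reads (mCherry) at the 1-cell stage. That is 0.16 to 0.25 cRPKM in 2-cell and 0.05 to 0.09 cRPKM in 1-cell libraries. The ranges did not overlap and Bcl2 rose by a log2 of 1.32 (SE 0.42, edgeR adjusted p = 0.017). Without both mCherry libraries its log2 change was 1.01 with an edgeR adjusted p of 0.0797, so the call rests on them.

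Bcl2l2 had 36 (both), 40 (Snrpb), 62 (Snrpd2) and 28 reads (mCherry) at the 2-cell stage against 14 (both), 14 (Snrpb), 17 (Snrpd2) and 7 reads (mCherry) at the 1-cell stage. Its level was 0.19 to 0.40 cRPKM in 2-cell and 0.04 to 0.09 cRPKM in 1-cell libraries, again without overlap. The log2 change was 1.79 (SE 0.46, edgeR adjusted p = 0.00532). An antisense gene shares exons with Bcl2 and a further gene on the same strand shares exons with Bcl2l2 in the GENCODE vM21 annotation, so part of these few reads could belong to them.

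Bax (ENSMUSG00000003873, chromosome 7), the effector that moves from the cytosol into the mitochondrial membrane, had the highest mean level of the pro-death members, overlapping with Bid at the 2-cell stage. It was at 10.9 (both), 8.45 (Snrpb), 13.0 (Snrpd2) and 9.86 cRPKM (mCherry) at the 2-cell stage. The 1-cell libraries had 15.3 (both), 15.5 (Snrpb), 15.5 (Snrpd2) and 21.4 cRPKM (mCherry). All 2-cell values were below all 1-cell values, and the 1-cell mCherry library was the highest. Bax fell by 0.94 on the log2 scale (SE 0.17, edgeR adjusted p = 0.000685), 1.92-fold lower. A further protein-coding gene on the same strand, Gm45808, shares exons with Bax in GENCODE vM21, so part of its reads could belong to that gene.

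Bok (ENSMUSG00000026278, chromosome 1) encodes an effector that can act without BH3-only activators. Its levels were 2.65 (both), 1.59 (Snrpb), 2.22 (Snrpd2) and 1.26 cRPKM (mCherry) at the 2-cell stage and 3.68 (both), 1.48 (Snrpb), 1.16 (Snrpd2) and 0.99 cRPKM (mCherry) at the 1-cell stage. The ranges overlapped throughout, the highest value at each stage was in the embryos given both mRNAs, and the log2 stage change was -0.04 (SE 0.28, edgeR adjusted p = 0.905). Its direction also changed with the scaling.

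Bak1 (ENSMUSG00000057789, chromosome 17), the effector that is resident in the mitochondrial membrane, was close to undetected and did not enter any test. It had 0 (both), 1 (Snrpb), 0 (Snrpd2) and 0 reads (mCherry) at the 2-cell stage and 2 (both), 0 (Snrpb), 3 (Snrpd2) and 1 read (mCherry) at the 1-cell stage. No library exceeded 3 reads, the count that an observed 0 still allows, so no fold is given. Bak1 also shares exons with Ggnbp1 on the opposite strand.

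Bid (ENSMUSG00000004446, chromosome 6), whose protein links death receptors to mitochondria once caspase-8 has cut it, made the largest change of the 9 members tested. It was at 11.7 (both), 10.6 (Snrpb), 8.84 (Snrpd2) and 8.32 cRPKM (mCherry) in 2-cell embryos. In 1-cell embryos it was at 0.42 (both), 0.48 (Snrpb), 0.42 (Snrpd2) and 0.46 cRPKM (mCherry). The stages were fully separated, with 757 to 989 reads at the 2-cell stage and 44 to 61 reads at the 1-cell stage. Bid rose by a log2 of 4.20 (SE 0.19, edgeR adjusted p = 4.12e-08), 18.3-fold, and the single-injection ratios were 24.4 (both), 17.96 (Snrpb), 16.8 (Snrpd2) and 15.7 (mCherry).

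Bid shares exons with Bcl2l13, a mitochondrial outer membrane gene on the opposite strand, and whether the counting used strand is not given in the sources used here. Bcl2l13 itself was at 14.8 to 17.4 cRPKM in 2-cell and 8.82 to 13.4 cRPKM in 1-cell libraries, with a log2 change of 0.28 (SE 0.12, edgeR adjusted p = 0.0626). The 18.3-fold ratio of Bid thus stands beside a 1.22-fold ratio of its neighbour.

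Bcl2l11 (ENSMUSG00000027381, chromosome 2) encodes BIM, a BH3-only protein that binds the main pro-survival proteins. It was at 8.02 (both), 7.18 (Snrpb), 8.24 (Snrpd2) and 6.80 cRPKM (mCherry) at the 2-cell stage and 5.64 (both), 5.24 (Snrpb), 5.09 (Snrpd2) and 4.98 cRPKM (mCherry) at the 1-cell stage. The ranges lay apart, but the log2 change of 0.27 (SE 0.12) did not pass the test (edgeR adjusted p = 0.0647). It passed under 6 of 12 alternatives, among them library totals (log2 change 0.53, edgeR adjusted p = 0.00314) and DESeq2 (adjusted p = 0.0203).

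**Figure D2:**
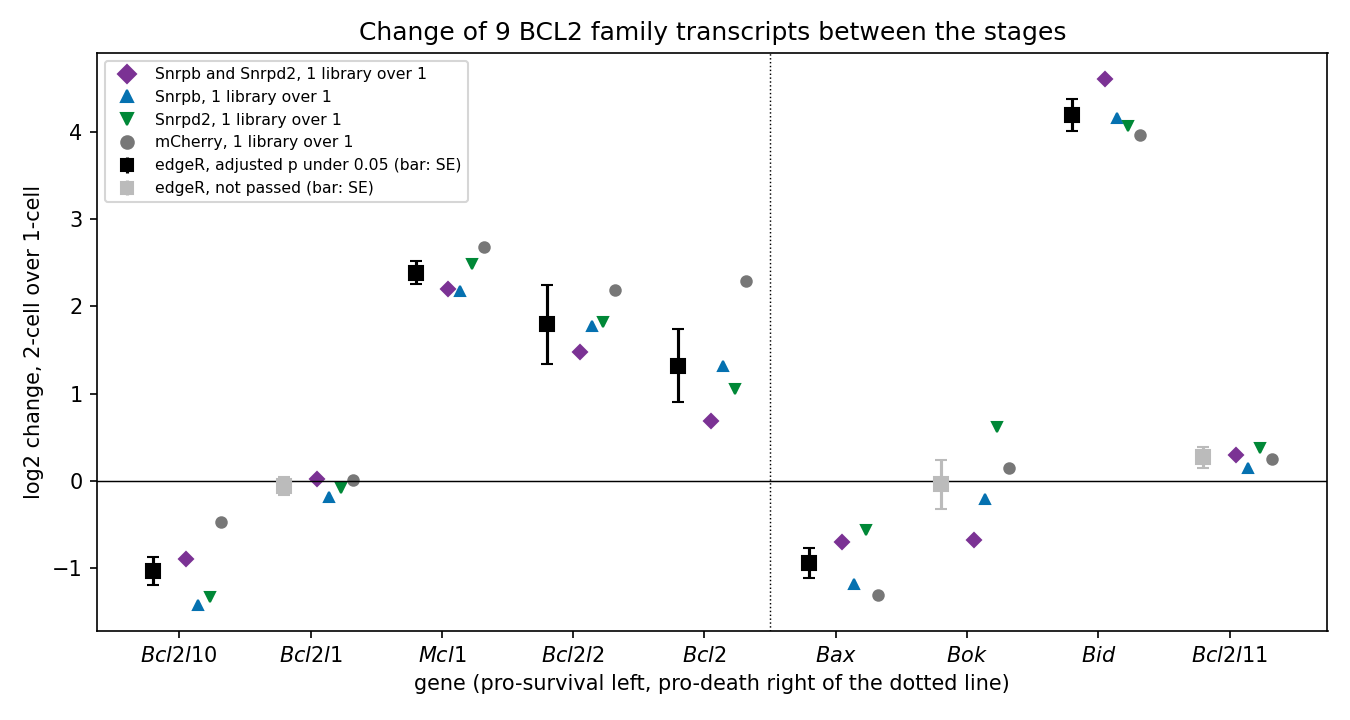
Log2 ratio of the 2-cell over the 1-cell stage for the 9 members tested: squares are the edgeR estimate with its SE over all 8 libraries, black where the adjusted p is under 0.05, and the smaller symbols are the TMM-scaled ratios of single libraries within an injection. Bid (4.20) and Mcl1 (2.39) lie far above 0 in every injection, Bcl2l10 (-1.04) and Bax (-0.94) lie below it in every injection, and Bok scatters across it.

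Some markers of other cells differed between the stages alongside these members. The 6 blood markers summed to 43.2 to 56.7 cRPKM at the 2-cell stage and 0 to 1.34 cRPKM at the 1-cell stage. Both that could be tested rose (Lyz2, log2 change 7.26, and Hba-a2, log2 change 6.35). With so little of these markers in 1-cell libraries a call of lower was hardly possible, so the rise is only described. Hba-a2 is uncertain because Hba-a1 is a near-identical copy. Hbb-bs and Hbb-bt had 0 cRPKM in all 8 libraries and Ptprc at most 0.06. Of 18 cumulus and granulosa markers tested 4 rose and 5 fell, beside 38.1% of all genes tested called higher and 32% called lower. These counts do not exceed those shares. The list summed to 22.7 to 26.5 cRPKM at the 2-cell stage and 24.2 to 53.4 cRPKM at the 1-cell stage. The part of these markers in the stage change of Mcl1 and Bid was not tested.

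The composition of each class shifted between the stages. Bcl2l10 made up 88.3% of the summed pro-survival cRPKM at the 2-cell stage (87.5 to 89.2% over 4 libraries) and 94.4% at the 1-cell stage (93.1 to 95.5%). Bcl2l1 made up 9.82% at the 2-cell and 5.41% at the 1-cell stage, and Mcl1 1.87% at the 2-cell and 0.188% at the 1-cell stage. Among the pro-death genes Bax took 35.3% at the 2-cell stage (30.4 to 40.3%) and 69.0% at the 1-cell stage (61.1 to 76.8%), while Bid took 33.1% at the 2-cell stage (27.3 to 38.0%) and 1.83% at the 1-cell stage (1.66 to 2.11%). Bid and Bax transcripts were thus present at like levels in 2-cell embryos, with a Bid to Bax ratio of 0.962 ± 0.252. In 1-cell embryos that ratio was 0.0267 ± 0.0039 (SD, n = 4 libraries at each stage). Only RNA was measured, so these shares, and the sums and ratios that follow, are not protein levels.

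The summed pro-survival level was 2167 ± 183 cRPKM at the 2-cell stage and 3513 ± 697 cRPKM at the 1-cell stage, and the summed pro-death level was 29.9 ± 3.41 cRPKM at the 2-cell and 24.5 ± 2.56 cRPKM at the 1-cell stage (SD, n = 4 libraries each). Their ratio was 63.2 (both), 69.8 (Snrpb), 70.8 (Snrpd2) and 89.1 (mCherry) in 2-cell libraries. In 1-cell libraries it was 127 (both), 171 (Snrpb), 192 (Snrpd2) and 97.7 (mCherry). The pro-survival sum exceeded the pro-death sum in all 8 libraries. Over all 10 members the ratio was lower at the 2-cell stage within every injection, least so with mCherry. Bcl2l10 alone averaged 1914 cRPKM at the 2-cell and 3321 cRPKM at the 1-cell stage. The other pro-survival members summed to 253 cRPKM at the 2-cell and 191 cRPKM at the 1-cell stage. Counted as pro-death, as some assays describe its protein, Bcl2l10 would put the pro-death sum above the pro-survival sum in all 8 libraries. The log2 change of the ratio was -0.97 ± 0.59 (SD over 4 injections), and no test was made of this sum over members.

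That change depended on which members were summed. Without Bcl2l10 the ratio was 8.54 ± 0.93 at the 2-cell stage and 7.90 ± 0.98 at the 1-cell stage (SD, n = 4 libraries each), a log2 change of 0.11 ± 0.27 that is within the spread between injections. Without Bcl2l10 and Bax, the most abundant gene of each class, the log2 change was -0.97 ± 0.15. With every member given equal weight as a geometric mean of cRPKM + 0.1, the log2 change was -0.01 ± 0.23. Taking out Bcl2l10 and Bid together, an alternative chosen after seeing the data, gave a log2 change of 0.67 ± 0.28. Without Bid alone, also chosen after seeing the data, it was -0.41 ± 0.59, and the mCherry pair then turned round, at 131 in the 2-cell and 99.4 in the 1-cell library. Summed as CPM, reads not divided by length, it was -1.26 ± 0.47.

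**Figure D3:**
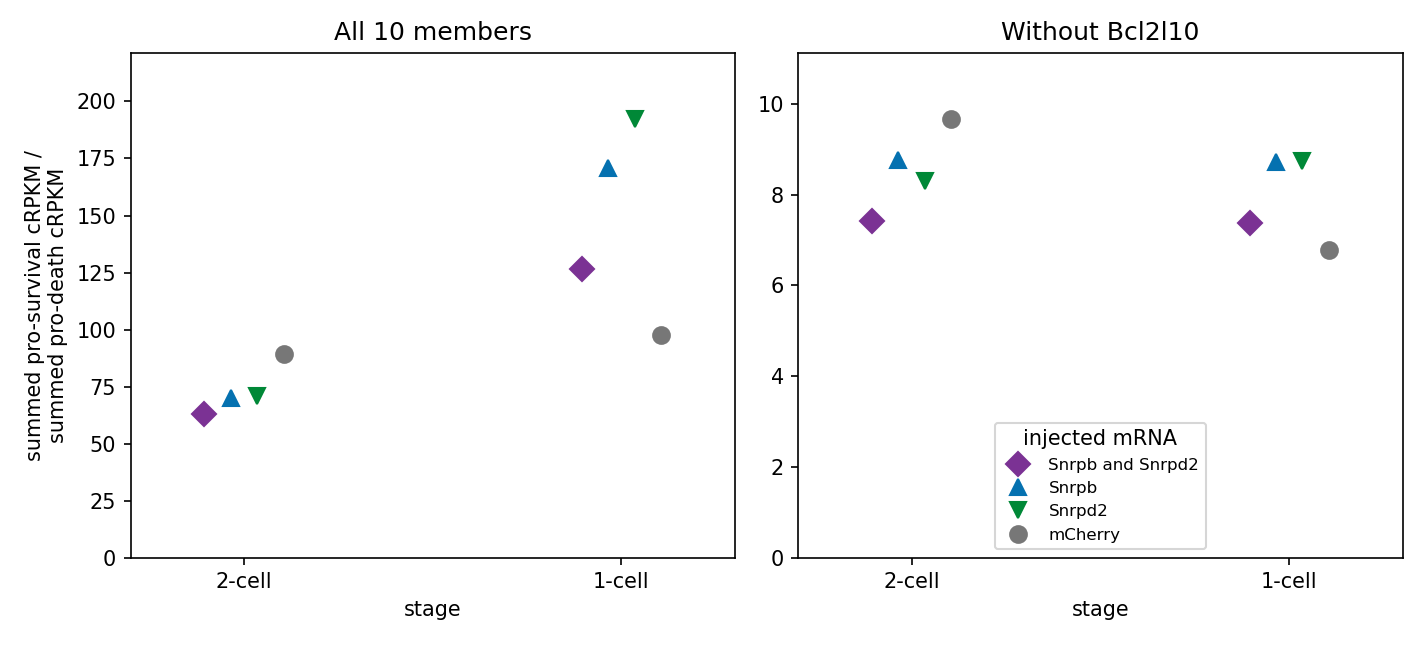
Summed pro-survival cRPKM divided by summed pro-death cRPKM in each library, with the 2-cell stage left of the 1-cell stage, over all 10 members (left panel) and without Bcl2l10 (right panel). The 2-cell libraries sit at 63.2 to 89.1 and the 1-cell libraries at 97.7 to 192 over all members, and the stages overlap once Bcl2l10 is left out.

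The second comparison set embryos given Sm mRNA against embryos given mCherry mRNA at the same stage. The labels name these injections as the manipulation studied, and the study's title places it around splicing and the DNA damage response. No member passed the test at either stage, and neither did any other gene: edgeR called 0% of 16867 genes at the 2-cell stage, 0% at the 1-cell stage and 0% for a difference between the stages. An unadjusted p under 0.05 was reached by 637 genes at the 2-cell stage, 2618 at the 1-cell stage and 1648 for the difference, and among the members by 0 at the 2-cell stage, 1 at the 1-cell stage and 1 for the difference. DESeq2 called 0 genes at the 2-cell stage, 534 at the 1-cell stage and 31 for the difference, with none of the members among them. It gave no adjusted p for Bcl2 and Bcl2l2 at the 1-cell stage or for Bcl2l2 in the difference, so these could not be called there. With 1 mCherry library a stage, these tests assume that it varies like the Sm libraries. Even the injected genes went uncalled by edgeR, with fitted log2 effects at the 1-cell stage of 11.25 for Snrpb and 12.23 for Snrpd2. The Sm group joined libraries of different injections, and each injected gene was high in only some of them. A lack of calls therefore does not show that the injections had no effect.

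Bcl2l10 was the member that reached the unadjusted level in both cases. At the 1-cell stage it was higher than in the mCherry library by 1.16-fold (95% counting interval 1.16 to 1.17) with both mRNAs, 1.55-fold (1.54 to 1.56) with Snrpb and 1.66-fold (1.64 to 1.67) with Snrpd2. At the 2-cell stage the ratios were 0.868 (0.861 to 0.876) with both, 0.807 (0.80 to 0.814) with Snrpb and 0.916 (0.908 to 0.924) with Snrpd2. All 3 Sm libraries thus stood above mCherry in 1-cell embryos and below it in 2-cell embryos. The fitted log2 effect was -0.21 at the 2-cell stage (SE 0.19, edgeR adjusted p = 1.0) and 0.54 at the 1-cell stage (SE 0.20, edgeR adjusted p = 0.241). The difference between the stages was -0.75 (SE 0.27, edgeR adjusted p = 0.424), so neither the 1-cell effect nor the difference passed.

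Bok had the widest spread among the Sm injections. In 2-cell embryos it was 2.06-fold (1.55 to 2.77) the mCherry level with both mRNAs, 1.25-fold (0.908 to 1.73) with Snrpb and 1.67-fold (1.25 to 2.24) with Snrpd2. In 1-cell embryos the ratios were 3.67 (2.83 to 4.81) with both, 1.61 (1.20 to 2.17) with Snrpb and 1.21 (0.878 to 1.67) with Snrpd2. The embryos given both mRNAs were highest at each stage, but the fitted effect of any Sm injection was 0.73 (log2, SE 0.58) at the 2-cell and 1.11 (SE 0.59) at the 1-cell stage, and neither passed (edgeR adjusted p = 1.0 at the 2-cell and 0.395 at the 1-cell stage). Intervals on these ratios cover counting error only and describe the libraries, not the conditions.

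Bax was lower than in the mCherry library in all 3 Sm libraries of the 1-cell stage, with ratios of 0.705 (both), 0.775 (Snrpb) and 0.745 (Snrpd2). At the 2-cell stage the ratios were 1.08 (both), 0.849 (Snrpb) and 1.25 (Snrpd2), on both sides of no difference. The fitted log2 effects were 0.08 (SE 0.24) at the 2-cell and -0.43 (SE 0.23) at the 1-cell stage, with edgeR adjusted p of 1.0 at the 2-cell and 0.391 at the 1-cell stage.

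Bid, at 2-cell levels high enough to compare, was 1.38-fold (1.25 to 1.51) the mCherry level with both mRNAs, 1.26-fold (1.14 to 1.39) with Snrpb and 1.00-fold (0.910 to 1.11) with Snrpd2. Mcl1 at the 2-cell stage was 0.883-fold with both, 0.834-fold with Snrpb and 1.09-fold with Snrpd2, and at the 1-cell stage 1.24-fold with both, 1.19-fold with Snrpb and 1.25-fold with Snrpd2. The fitted effects of Bid and Mcl1 did not pass at either stage, and for Bcl2l1 they were -0.04 (log2, SE 0.14) at the 2-cell and 0.06 (SE 0.14) at the 1-cell stage, where the sign at the 2-cell stage turned to 0.003 with library totals. Those of Bcl2, Bcl2l2 and Bcl2l11 did not pass either, and over the 9 members the edgeR adjusted p at the 1-cell stage was at least 0.241.

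The mCherry library had the lowest cRPKM of its stage for 4 of 9 members at the 2-cell stage (Bcl2l2, Bok, Bid and Bcl2l11), as it had for 27.4% of all genes tested, and the highest for 2 (Bcl2 and Bcl2l10, 17.9%). At the 1-cell stage it was lowest for 5 (Bcl2l2, Bcl2l10, Mcl1, Bok and Bcl2l11, 25.8%) and highest for 1 (Bax, 36%). Members lay on both sides at each stage, with mCherry more often lowest than highest. Over all genes tested the 1-cell shares ran the other way, and this difference was not tested.

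**Figure D4:**
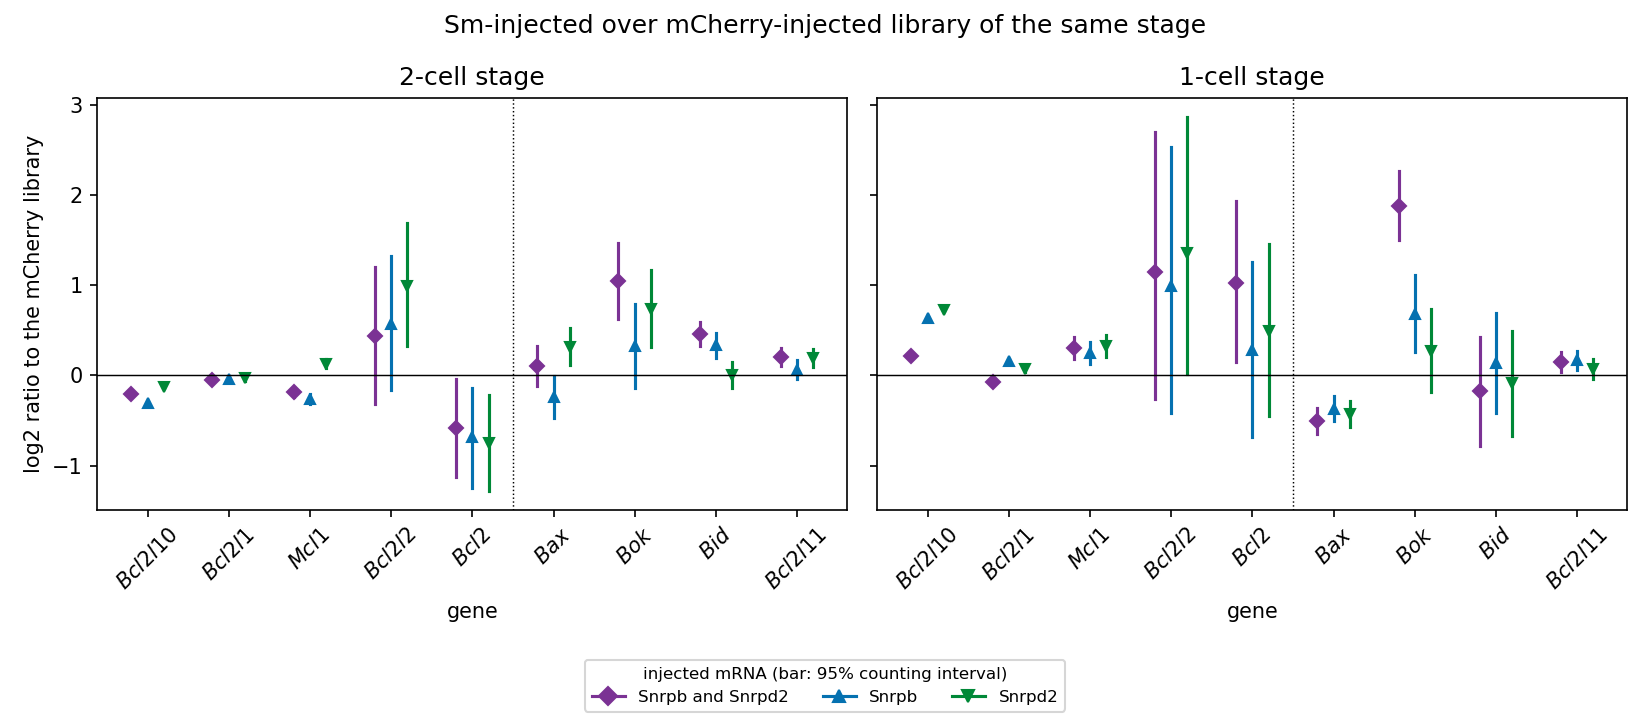
Log2 ratio of each Sm-injected library to the mCherry library of its stage for the 9 members tested, TMM-scaled, with the 2-cell stage in the left panel and 95% counting intervals as bars. Bcl2l10 lies below 0 in all 3 libraries at the 2-cell stage and above 0 at the 1-cell stage, Bok is highest with both mRNAs at each stage, and the wide bars of Bcl2 and Bcl2l2 come from 7 to 77 reads a library.

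Markers of cumulus and granulosa cells, which surround the egg, summed higher in the Sm libraries than in the 1 mCherry library at the 1-cell stage. Their summed level was 53.4 (both), 38.5 (Snrpb) and 34.2 (Snrpd2) against 24.2 cRPKM with mCherry. A positive fitted Sm effect was found there for 16 of 18 tested markers, with a median log2 effect of 1.22. Of these 18 markers 6 had an unadjusted edgeR p under 0.05 and 0 passed. Over all genes tested 2618 of 16867 had an unadjusted p under 0.05, and the median log2 effect was 0. At the 2-cell stage the sums were 23.5 (both), 24.3 (Snrpb) and 26.5 (Snrpd2) against 22.7 cRPKM with mCherry, and 10 of 18 were positive with a median of 0.12. Tnfaip6, a gene of the cumulus matrix, was at 9.11 (both), 6.20 (Snrpb) and 4.23 (Snrpd2) against 1.17 cRPKM with mCherry in 1-cell embryos (fitted log2 effect 2.50, edgeR adjusted p = 0.146). The fitted 1-cell effects of Ptgs2 (2.51), Inhba (2.03) and Gja1 (2.02) were also positive and did not pass. Those of Star (-0.35) and Kitl (-0.27) were negative. Ereg had 0 cRPKM in all 8 libraries and Amh at most 0.08. The part of such cells in the 1-cell levels of Bcl2l10, Bok and Bax was not tested.

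The rest of the intrinsic pathway was read from lists of related genes. The counts for these lists stand beside 38.1% of all genes tested called higher and 32% called lower at the 2-cell stage. Of the 6 other BH3-only genes 5 were higher and 0 lower, with a median log2 change of 3.23, whereas Bik was at 23.3 to 32.2 cRPKM in 2-cell and 17.6 to 23.0 cRPKM in 1-cell libraries and did not pass (log2 change 0.24, edgeR adjusted p = 0.166). Pmaip1, which encodes NOXA, a partner of MCL1, was at 6.38 (both), 5.72 (Snrpb), 5.69 (Snrpd2) and 6.38 cRPKM (mCherry) at the 2-cell stage. Its 1-cell levels were 0.14 (both), 0.06 (Snrpb), 0.07 (Snrpd2) and 0.19 cRPKM (mCherry), and the log2 change was 5.48 (SE 0.27, edgeR adjusted p = 6.8e-08). Bbc3, which encodes PUMA, was at 5.65 to 6.91 cRPKM at the 2-cell stage and 0 to 0.17 cRPKM at the 1-cell stage, where the mCherry library had 0 reads, and its log2 change was 5.73 (SE 0.48, edgeR adjusted p = 2.64e-06).

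Bmf (log2 change 3.37), Hrk (3.08) and Bad (0.75), which bind pro-survival proteins, also rose, Bmf to 0.41 to 0.69 cRPKM, Hrk to 0.07 to 0.17 cRPKM and Bad to 2.23 to 2.89 cRPKM in 2-cell libraries. Hrk rests on 14 to 41 reads a library at the 2-cell stage and 1 to 7 reads at the 1-cell stage. Together with Bid, 6 of the 8 BH3-only genes measured rose and 0 fell, while Bik and Bcl2l11 did not pass. Over all genes tested 38.1% were called higher and 32% lower. In 1-cell libraries Bmf had 6 to 17 reads, Bbc3 0 to 18 and Pmaip1 10 to 28. Genes that low at the 1-cell stage, Hrk included, could hardly be called lower at the 2-cell stage. The direction of both BH3-only counts was thus partly fixed by the filter on reads. The lists were chosen with earlier results of these data known, and their medians stand beside 0.15 for all genes tested.

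Among the 9 other BCL2-like genes found, 7 were tested, 2 rose and 3 fell, with a median log2 change of -0.18. Bcl2l14 had 177 to 403 reads in 2-cell libraries (1.90 to 4.11 cRPKM) and 0 to 4 reads in 1-cell libraries, with a log2 change of 7.73 (edgeR adjusted p = 7.98e-07) that depends on those few reads. Becn1, an autophagy gene whose protein binds BCL2, rose by a log2 of 2.35 (SE 0.23, edgeR adjusted p = 8.44e-06), at 24.6 to 25.9 cRPKM at the 2-cell stage and 2.47 to 6.66 cRPKM at the 1-cell stage. Bcl2l12 fell by 1.27 on the log2 scale (SE 0.24, edgeR adjusted p = 0.000792), and the near-identical copies Bcl2a1b and Bcl2a1c had 0 reads in all 8 libraries, which is uncertain because the treatment of shared reads was not stated.

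Of 7 mitochondrial outer membrane partners and neighbours 4 rose and 2 fell (median log2 change 0.37). Vdac1, a channel of the outer membrane, rose by a log2 of 1.31 (SE 0.12, edgeR adjusted p = 5.8e-06), and Tmbim6, a BAX inhibitor of the endoplasmic reticulum, fell by 1.22 on the log2 scale (SE 0.12, edgeR adjusted p = 7.83e-06). Of 9 genes that act in or after cytochrome c release 3 rose and 3 fell (median 0.23). Cycs, which encodes cytochrome c, stood at 9.60 (both), 12.3 (Snrpb), 11.9 (Snrpd2) and 12.4 cRPKM (mCherry) at the 2-cell stage. Its 1-cell levels were 2.19 (both), 2.02 (Snrpb), 2.54 (Snrpd2) and 2.36 cRPKM (mCherry), a log2 change of 2.08 (SE 0.14, edgeR adjusted p = 6.56e-07). Aifm1, which encodes a flavoprotein of the space between the mitochondrial membranes, was at 6.14 to 9.17 cRPKM in 2-cell and 11.7 to 16.0 cRPKM in 1-cell libraries. It fell by 1.11 on the log2 scale (SE 0.14, edgeR adjusted p = 5.1e-05).

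**Figure D5:**
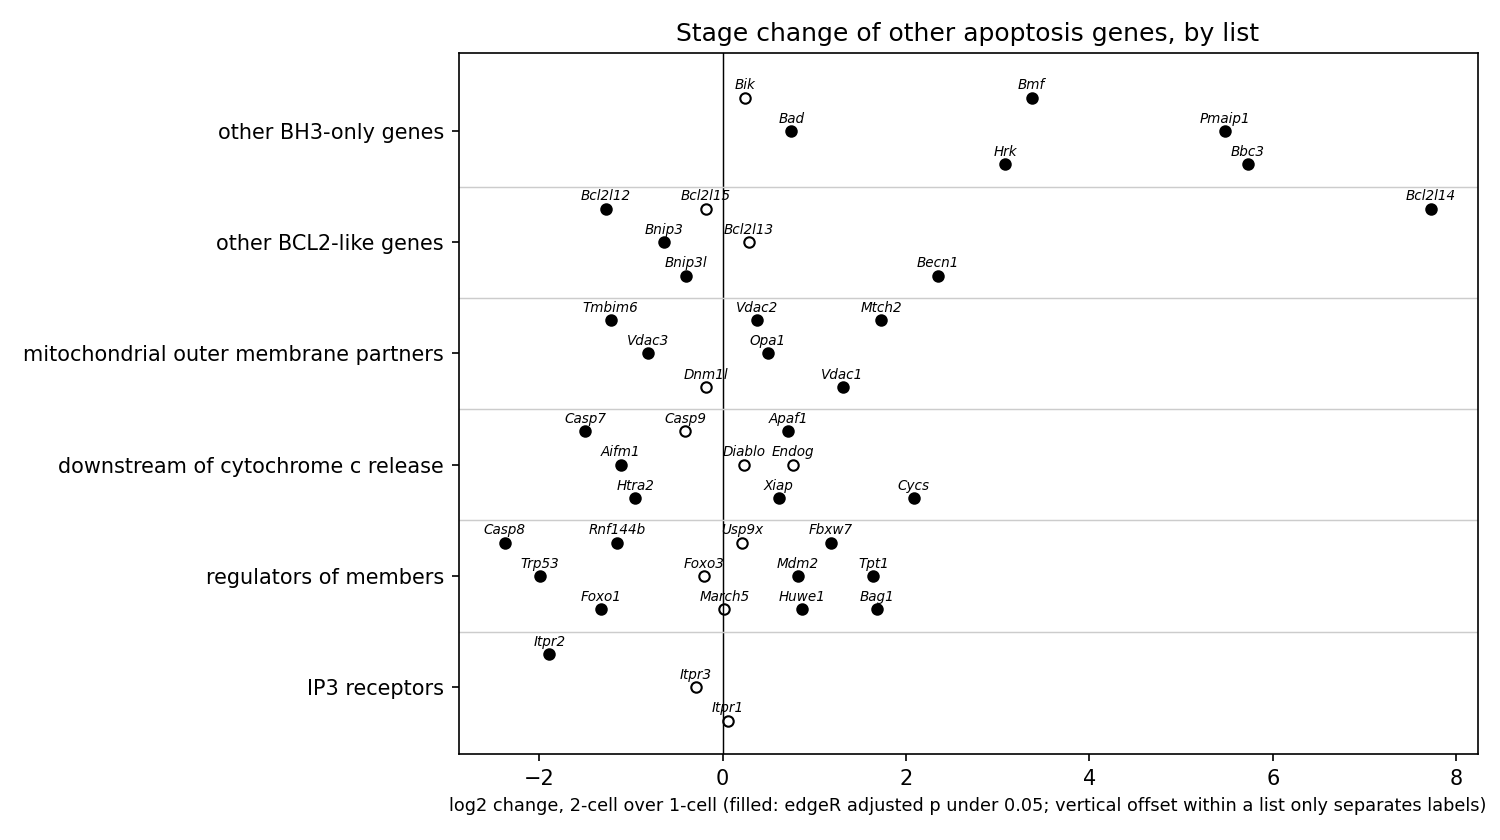
Log2 ratio of the 2-cell over the 1-cell stage for genes of 6 lists around the family, 1 point a gene, filled where the edgeR adjusted p is under 0.05. The BH3-only genes lie at or right of 0, with a median of 3.23, whereas the other lists spread to both sides.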

How the data were processed

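The deposited tables, 1 per library, gave whole-number read counts and cRPKM values for 22667 Ensembl genes, of which 21553 had values and were used. The cRPKM, an RPKM value made by the authors, equalled the deposited count over a fixed gene length and the library total to within 0.172% in 2662 genes with over 2000 reads. Per the submitters' processing notes the genome was mm9. Aligner, annotation, strand use and treatment of multi-mapping reads were not given in the sources used here. Symbols came from GENCODE vM21 (20451 genes used had one), and promoters from RefSeq (GRCm38.p6).

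The counts were tested with edgeR 4.0.16 in R 4.3.3 (quasi-likelihood, TMM, filterByExpr, Benjamini-Hochberg over all genes tested, threshold 0.05). The stage model had injection as a block (16264 genes, 3 residual degrees of freedom, common dispersion 0.043). The Sm model had 4 groups, stage by Sm or mCherry (16867 genes, 4 residual degrees of freedom, common dispersion 0.0362). Alternatives were DESeq2 1.42.0, its size factors, library totals, no filter, the injected genes left out, no block, 1 Sm effect over both stages, each injection left out, and limma 3.58.1 on log2(cRPKM + 0.1) and log2(cRPKM + 1). The fits were also run on simulated libraries with known changes. Those had 1 dispersion for all genes and no differences between the Sm injections. That run therefore does not show how well the Sm test works on these data. Single-library ratios have exact conditional binomial intervals (95%), and 3 reads is the floor of a count of 0; both cover counting error only, since PCR reads are not independent molecules.

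The members and lists were chosen with earlier results of these data known. All 10 members are named. From each list of pathway genes the text names the 2 genes with the smallest adjusted p, and all other BH3-only genes and Bcl2l12, Bcl2l13, Bcl2l14 and the Bcl2a1 copies whatever they did. Further genes, marker genes included, were named after their values were seen. One gene of these lists is not reported here and enters no list count.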

Additional observations from a re-analysis of the deposited data

Results flagged for a closer look

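Among 20 sets of 4 libraries of a stage, 1 for each member and stage, 3 had a library far from the other 3, and chance gives about 1 in 20. For Bcl2 at the 2-cell stage the gap between the mCherry library (0.25 cRPKM) and the nearest other (0.17 cRPKM) was 0.889 of the whole range. For Bax at the 1-cell stage the gap between the mCherry library (21.4 cRPKM) and the nearest other (15.5 cRPKM) was 0.97 of the range. For Bak1 at the 2-cell stage it was 1.0, from a single read in the Snrpb library and 0 reads in the others.

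The pro-survival to pro-death ratio in Sm libraries stood on opposite sides of mCherry at the 2 stages. Its log2 ratio to mCherry was -0.50 (both), -0.35 (Snrpb) and -0.33 (Snrpd2) at the 2-cell stage, and 0.38 (both), 0.81 (Snrpb) and 0.98 (Snrpd2) at the 1-cell stage. The difference of the means, 2-cell minus 1-cell, was -1.11 and was not tested. Without Bcl2l10 the means were -0.25 at the 2-cell and 0.28 at the 1-cell stage. Without Bcl2l10 and Bax they were -0.32 at the 2-cell and -0.24 at the 1-cell stage, both below 0.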

How the results depend on the processing

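The members called between the stages numbered 5 to 7 over 12 alternatives, against 6. Bcl2 lost its call without the mCherry libraries, Bcl2l11 passed in 6 alternatives, and Bid, Mcl1, Bcl2l2, Bcl2l10 and Bax kept direction and call in all 12. No tested member was called for an Sm effect in any alternative, though DESeq2 gave no adjusted p for Bcl2 and Bcl2l2 at the 1-cell stage. The calls over all genes at the 1-cell stage numbered 534 with DESeq2 and 0 to 29 with an Sm injection left out (29 without Snrpd2).

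The pro-survival to pro-death log2 change of -0.97 was 0.11 without Bcl2l10, -0.01 as a geometric mean and 0.67 without Bcl2l10 and Bid; with an injection left out it was -1.25 (without mCherry) to -0.81 (without Snrpd2). Uncalled values changed sign as follows, as log2 values, and the cause was not tested. The stage change of Bcl2l1 was 0.197 with library totals and 0.197 and 0.196 with limma. That of Bok was 0 with size factors, 0.001 with DESeq2, 0.219 with totals, 0.209 and 0.116 with limma, and -0.302 to 0.187 with an injection left out. With 1 Sm effect over both stages, the effect was -0.133 for Bcl2 and 0.154 for Bid against the 1-cell value, and -0.192 for Bax, 0.008 for Bcl2l1, 0.141 for Bcl2l10 and 0.09 for Mcl1 against the 2-cell value. The 2-cell effect on Bcl2l1 was 0.003 with totals and 0.002 with limma at either pseudocount. With an Sm injection left out, the 1-cell effect on Bid was -0.126 to 0.051, the 2-cell effect on Bax -0.052 to 0.218, and the difference between stages -0.04 to 0.086 for Bcl2l11 and -0.685 to 0.058 for Bok. That difference for Bcl2l2 was 0.147 and 0.09 with limma. The stage test paired the libraries by injection, and without that block 7 members were called, Bcl2l11 the added one. Depth limits Bak1, Bcl2 and Bcl2l2, which had 0 to 77 reads a library.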

Other observations

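Of 12 genes whose products act on the members 5 rose and 4 fell at the 2-cell stage (median log2 change 0.12), near the shares over all genes tested (38.1% higher and 32% lower). Casp8, which encodes the protease that cuts BID, was at 5.68 to 6.59 cRPKM in 2-cell and 22.4 to 31.0 cRPKM in 1-cell libraries and fell by 2.38 on the log2 scale (SE 0.14, edgeR adjusted p = 2.03e-07), while Bid rose. Trp53, which encodes p53, a transcription factor that can drive Bax, Bbc3 and Pmaip1, fell by 1.99 on the log2 scale (SE 0.13, edgeR adjusted p = 4.6e-07), at 12.9 to 17.4 cRPKM in 2-cell and 46.0 to 56.9 cRPKM in 1-cell libraries.

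The IP3 receptors are calcium channels of the endoplasmic reticulum that several family members bind. Of the 3, 1 fell and the others did not pass. Itpr2 was at 5.97 to 6.84 cRPKM in 2-cell and 18.5 to 20.5 cRPKM in 1-cell libraries, a log2 change of -1.89 (SE 0.11, edgeR adjusted p = 2.02e-07). Itpr3 was under 0.34 cRPKM in all 8 libraries (log2 change -0.30, edgeR adjusted p = 0.563).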
